A study of Arabidopsis thaliana with 2 samples.

Results

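Peaks of the transcription factor ERF115 were deposited at 3 class III peroxidase genes of Arabidopsis thaliana, PRX71 (AT5G64120), PRX25 (AT2G41480) and AT5G40150. They were chosen by a readout of the study itself, the assignment of a peak to the gene in the authors' annotated list, and they account for 3 of the 612 peaks and 3 of the 608 loci in it. The names table calls AT5G64120 and AT2G41480 peroxidase 71 and peroxidase 25. It gives AT5G40150 only clone names, so that gene is written by its locus, and its place in the family is from general knowledge.

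The ChIP-seq cells were PSB-D, a suspension culture of the Landsberg erecta ecotype grown in the dark. The ERF115-HBH group carried 35S::ERF115-HBH, in which the constitutive 35S promoter drives ERF115 fused to the HBH tag used for purification on nickel and streptavidin beads. The mock group was wild-type cells without the tagged protein, taken through the purification as the negative control. Both were harvested 2 days after subculture and fixed in 0.75% formaldehyde for 10 minutes, and each group has 1 library. There is therefore no replicate check, and no difference between the groups was tested. Read counts and depth are unknown, and values of the mock library were not analysed here. Cell type markers could not be looked at, since peak positions carry no expression values.

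Class III peroxidases are secreted haem enzymes of plants. With hydrogen peroxide they oxidise phenolic compounds in the cell wall, which couples monolignols into lignin and cross-links wall proteins and polysaccharides, and they can also produce reactive oxygen species. Stiffening of the wall by such cross-links limits cell expansion. The family is large and many of its genes stand in tandem copies. ERF115, an AP2/ERF DNA-binding protein, is known in roots for its link to division of quiescent centre cells.

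PRX71, known in Arabidopsis to limit cell growth and to act in lignin formation, had the highest score of the 3. Its peak lay at chr5:25660452-25661713 in the TAIR10 build, labelled intergenic 5' of the gene. The score was 166.88, rank 63 of 612. This score is the authors' own value from the peak caller MACS. The caller defines it as the negative log10 of a peak p-value multiplied by 10, so that of PRX71 stands for a negative log10 p of 16.7. The mock is described as the negative control, but the file does not say which library each score was computed against. It places the peak among the 10.3% of the list with the highest scores. Of the 275 peaks with the same label it ranked 30. The peak was compact, with a width of 1262 bp, which ranked 539 of 612 from the widest. The authors' position inside the peak, used here as its reference point, was 25661088, which is 5.5 bp from the midpoint.

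PRX25, whose product is known to take part in lignification in Arabidopsis stems, had a peak much like that of PRX71. It lay at chr2:17298490-17299670, again labelled intergenic 5', with a score of 159.59, a negative log10 p of 16.0. It ranked 66 of 612 by score and 31 of 275 among peaks with its label, directly behind PRX71 there. The width of 1181 bp ranked 591 of 612, so this was one of the narrowest peaks of the list. Its reference point, 17299195, was 115 bp from the midpoint. Both genes thus had a narrow peak on the side labelled 5', with a score well above the list median of 78.9.

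The peak of AT5G40150 was of another kind. It lay at chr5:16056739-16061265 and was labelled coding 3'. Each peak has 1 label, given by a rule that is not stated. Which parts of the peak overlap the gene was not analysed here. Its score of 79.57, a negative log10 p of 7.96, ranked 302 of 612 and was close to the list median. Among the 64 peaks labelled coding 3', whose median score was 81.9, it ranked 34. It was broad, at 4527 bp, against a median of 2387 bp for peaks with this label and 1894 bp for all peaks, and ranked 48 of 612 by width. The reference point, 16060039, stood 3300 bp from the start and 1226 bp from the end of the peak, or 1037 bp from its midpoint. The median distance to the midpoint was 209 bp over all peaks and 1085 bp over the 48 peaks that were at least as wide.

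**Figure D1:**
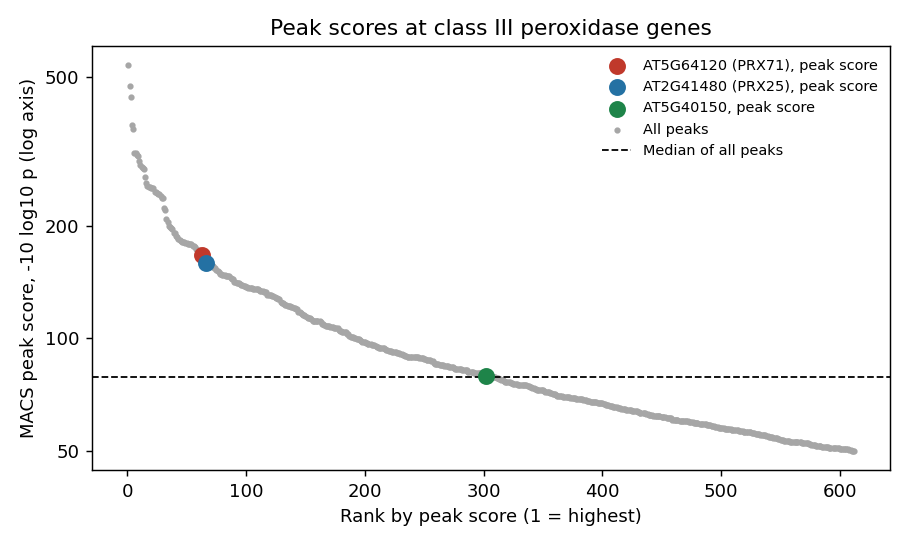
MACS peak score (log axis) against rank for the 612 ERF115-HBH peaks, with the 3 class III peroxidase genes as large points and the list median as a dashed line. PRX71 and PRX25 sit together at ranks 63 and 66, and AT5G40150 sits at rank 302, next to the median of 78.9.

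**Figure D2:**
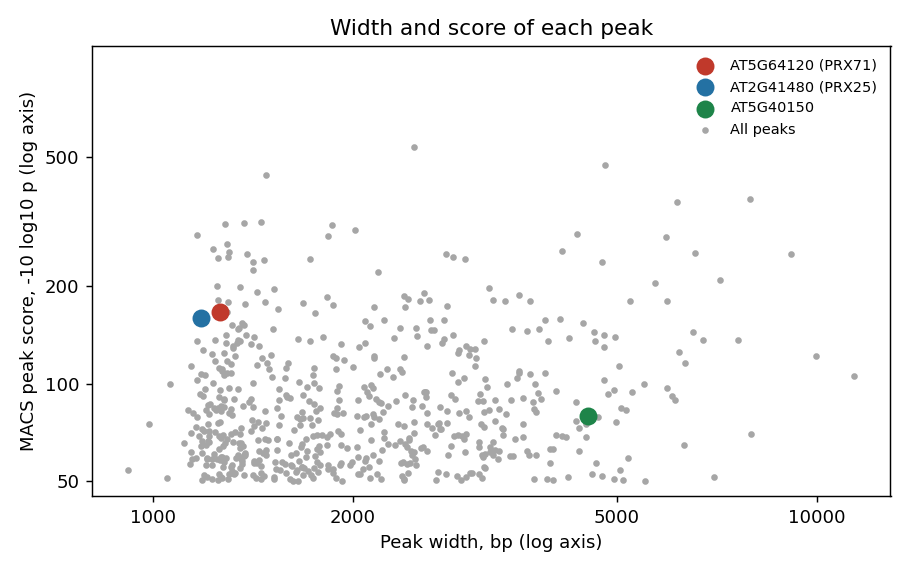
Peak score against peak width, both on log axes, with 1 point per peak. PRX71 and PRX25 lie at the narrow edge, at 1262 and 1181 bp, and AT5G40150 lies among the broad peaks at 4527 bp with a score of 79.57.

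AT5G40150 was the only one of the 3 whose peak carried the mark TP, which stands in a column headed DE in the authors' deposited table. What the mark means is not stated in the labels or the table. It stands beside 22 of the 612 peaks, or 3.59%. Of these 22, the AT5G40150 peak ranked 12 by score and 2 by width, and it was one of 4 that were labelled coding 3'. Over the marked peaks the median score was 84.1 and the median width 1526 bp. PRX71 and PRX25, with higher scores than AT5G40150, had no mark, like 590 of the 612 peaks. Marked peaks had scores from 57.64 to 270.26.

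The peaks next in score to the members belonged to genes of other kinds. Directly above PRX71 was AT4G28350, named as the lectin receptor kinase LecRK-VII.2, with a score of 169.94 and a TP mark, and directly below it was the clathrin heavy chain gene CHC2 (AT3G08530) with 165.83. PRX25 stood between NAGK (AT3G57560), a kinase of arginine synthesis, with 165.12, and EDA40 (AT4G37890) with 157.81. AT5G40150 stood between the receptor-like kinase gene CRK42 (AT5G40380) with 79.69 and AT5G53830, named MVQ3, with 79.51. None of these 6 genes is a class III peroxidase, which is no separate result, since no other listed gene of that family was assigned a peak.

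On the chromosome the 3 peaks differed in how close another peak came. AT5G40150 had its nearest neighbour 335 bp away, a peak at chr5:16054271-16056403 with a score of 74.93. That peak was assigned to AT5G40130, a transcribed pseudogene in the names table, and labelled intergenic 5'. A gap this small or smaller was found for 2.61% of the 612 peaks. The AT5G40150 peak scored higher by 4.64. On its other side the next peak, of AGL43 (AT5G40220, a MADS-box gene by its name), was 17567 bp away with a score of 84.84. In gene order AT5G40140 precedes AT5G40150 and AT5G40153 follows it, and the names table places AT5G40153 over part of AT5G40150. The peak was given to AT5G40150 alone, and enrichment at overlapping genes cannot be told apart in such a list.

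PRX71 stands at the end of a tandem group, with the class III peroxidase genes AT5G64100 and AT5G64110 directly before it in gene order. Neither of these 2 was assigned a peak. The gene before the group, AT5G64090, did have a peak, at chr5:25646129-25648776, labelled coding 5' with a score of 146.58 (rank 86 of 612). In gene order the peroxidase genes without a peak thus stand between AT5G64090 and PRX71, whose peaks were 11675 bp apart. On the far side the nearest peak, at the EXORDIUM-like gene EXL2 (AT5G64260), was 40388 bp away with a score of 93.76. How reads that match several copies were treated is not stated in the labels.

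PRX25 was the most isolated of the 3. Its nearest peaks were 34114 bp away at AT2G41410, with a score of 67.68, and 137969 bp away at AT2G41800, with a score of 251.83 (rank 21). The genes beside PRX25 in gene order, AT2G41475 and GPT (AT2G41490, for the first enzyme of N-glycan assembly), had no peak. A gap of 34114 bp is near the middle of the list, where the median gap to the nearest peak was 37378 bp. Within 50 kb of the reference point there were 2 other peaks for PRX71, 1 for PRX25 and 2 for AT5G40150, and the median over all peaks was 1.

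**Figure D3:**
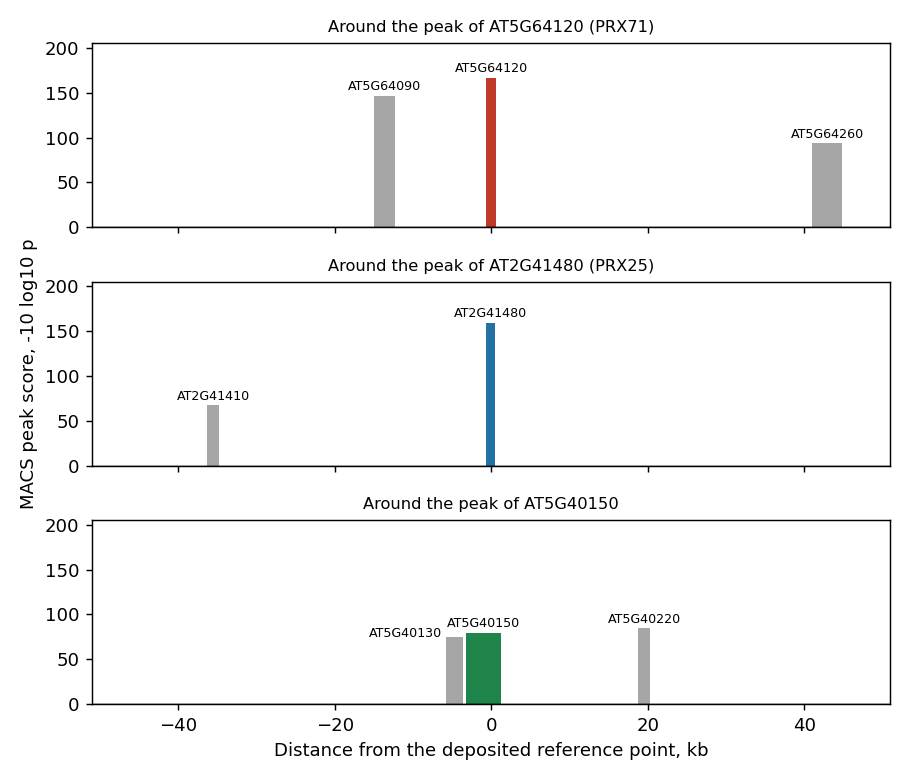
Peaks within 50 kb of each member's reference point, drawn to scale along the chromosome, with bar height the peak score and the member in colour. The AT5G40150 peak is the broad one with a neighbour 335 bp away, whereas PRX25 has 1 other peak in its window.

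The 3 genes were set against the rest of their family with a list of 73 class III peroxidase loci, written from general knowledge. All 73 were in the names table, which gives 14 of them a peroxidase name. PRX71, PRX25 and AT5G40150 were the members of that list with an assigned peak, which is 3 of 73 or 4.11%, against 2.06% of the 27444 nuclear protein-coding genes. Since the members were chosen for having a peak, no test was run on this count. All 3 were among the 306 peaks with the highest scores, which were assigned to 1.04% of nuclear protein-coding genes. AT5G40150, at rank 302, was only just inside that cut. PRX71 and PRX25 were the 2 family genes with a score of at least 100, a level reached at 0.656% of nuclear protein-coding genes. They were also the 2 with a 5' label of any kind, against 1.36% of those genes. Of the 3, 2 were on chromosome 5, which holds 22 of the 73 loci, and 1 was on chromosome 2, which holds 13. The 13 loci on chromosome 1, the 10 on chromosome 3 and the 15 on chromosome 4 had none. The share of all genes with a peak was not computed by chromosome, so no pattern by chromosome can be read from these counts. A missing peak does not show that ERF115 was absent, since the depth is unknown.

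Further family genes stood close to a peak without being assigned one. Next to a gene with a peak were AT5G64100 and AT5G64110 of the tandem group and AT2G38380, whose neighbour AT2G38370 had a peak labelled intergenic 5' that scored 54.6, rank 541 of 612. With such neighbours counted, 6 of 73 family genes were at or next to a gene with a peak (8.22%), against 5.93% of all nuclear protein-coding genes. These 6 include the members, which were chosen for having a peak, and AT5G64110, which counts only through its neighbour PRX71, itself a member. The family share is thus in part set by that choice, and it was not tested. Only AT5G64100 and AT2G38380 stood next to a gene with a peak that is not a member. The median distance to the nearest gene with a peak was 15 steps in gene order for the family, members included, and 21 for all genes. Most of the family, 46 of 73 genes (63.0%), was over 10 steps away, as were 68.3% of all genes. A further peak, singled out after its values were seen, was assigned to AT5G39581, a locus that the names table does not hold and whose number follows directly on that of the class III peroxidase AT5G39580. It lay at chr5:15848536-15849845, was labelled coding 3' and had a score of 83.46, rank 275 of 612. AT5G39580 was not counted as a gene with a peak, nor as next to one. It was counted as 44 steps from a gene with a peak, because AT5G39581 is not in the gene order used. It is thus among the 46 family genes over 10 steps away.

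**Figure D4:**
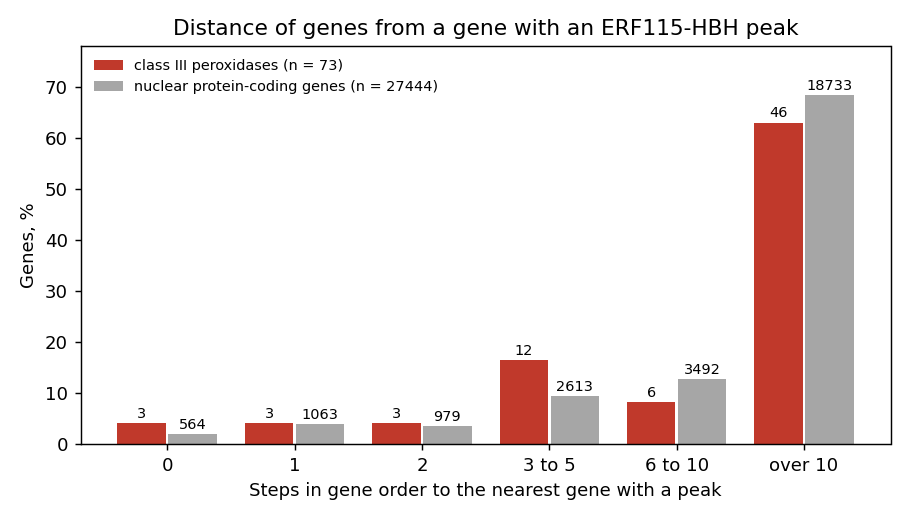
Share of genes by the number of steps in gene order to the nearest gene with a peak, for 73 class III peroxidases (left bars) and 27444 nuclear protein-coding genes (right bars), with the number of genes above each bar. At 0 steps stand the 3 members, 4.11% of the family against 2.06% of all genes, and over 10 steps away are 63.0% of the family and 68.3% of all genes.

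Genes that act beside these enzymes were looked up in the same way. Respiratory burst oxidases make the superoxide that yields hydrogen peroxide in the wall, and 1 of 10 had a peak. It was RBOHD (AT5G47910), known for the oxidative burst in defence, with a peak at chr5:19396442-19399888 labelled intron 5', a score of 59.91 and rank 474. Of 18 genes of monolignol synthesis, which supplies the phenolic substrates, 1 had a peak. This was HCT (AT5G48930), an acyltransferase of that pathway, with an intergenic 5' peak at chr5:19837550-19839006, a score of 52.9 and rank 559. No peak was assigned to any of 17 laccases, the other wall enzymes that oxidise monolignols. The same held for 11 genes named as ascorbate peroxidases or catalases, enzyme families that remove hydrogen peroxide inside the cell. In all 2 of these 56 genes had a peak (3.57%, against 2.06% of nuclear protein-coding genes). Both scored lower than each of the 3 peroxidase genes, and HCT was near the lowest score in the list, 50.01. These gene lists are short against a share of 2.06%, so no contrast with the peroxidases can be read from their separate counts. None was tested.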

How the data were processed

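ChIP DNA from 1 ERF115-HBH library and 1 mock library was sequenced. The submitters' processing notes name MACS 1.4.2, BWA 0.5.9, CASAVA 1.8.2, SAMtools 0.1.18 and Picard, and the TAIR10 build, without parameters, filters or order. The authors deposited a peak list and an annotated copy for the ERF115-HBH sample. Per the file headers, the track name joins a pair of library codes without saying which is the ChIP and which the control; the series' design text calls the mock the negative control, so what each score was computed against is not stated outright. The deposited peak score is not normalised across libraries and was used within this list only. The deposited Z score restates it and was not used. Location labels, assigned genes and reference points are the authors', by a rule that neither the labels nor the file headers state. Starts were converted to 1-based, reference points were kept as deposited.

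Ranks, widths, gaps and gene-order steps were computed with Python 3.11.15 and pandas 2.3.3. Gene-order steps and gaps were checked on simulated data, and ranks and widths were not. Names, gene types and gene order came from an NCBI RefSeq table of TAIR10.1, which held 600 of the 608 loci. None of its coordinates is given. Gene-order steps count nuclear protein-coding genes only.

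The members and the 5 gene lists (129 loci) were chosen with earlier results of these data known. The genes named are the 3 members, list genes with a peak, gene-order neighbours, the peaks next in score, and others so marked; peaks next on the chromosome were added after their values were seen. Planned searches for the GCC-box in promoters and comparisons of protein sequence, with the naming of the most similar peroxidase, were not run, as no sequences were used here. With 1 library per group no test was made.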

Additional observations from a re-analysis of the deposited data

How the results depend on the processing

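No paired analysis was possible because there is a single library per group, so none could be left out. The count of class III peroxidase genes with a peak, 3, was also 3 among the 306 peaks with the highest scores, where 1.04% of nuclear protein-coding genes had one. AT5G40150, at rank 302, was only just inside that cut. The count was 2 of 73 (2.74%) among peaks scoring at least 100, against 0.656% of all genes. It was also 2 of 73 (2.74%) with 5' labels only, against 1.36% of all genes. AT5G40150 dropped out of both. With adjacent genes counted it was 6 of 73 (8.22%), against 5.93% of all genes, where AT5G64110 joined through PRX71 itself. For the other pathway lists, with alternatives chosen after seeing the data, the count of 2 became 0 among the 306 peaks and 0 among peaks scoring at least 100, because RBOHD and HCT score lower. It stayed at 2 of 56 with 5' labels (3.57%, against 1.36% of all genes). With adjacent genes it was 3 of 56, where CAT2 (AT4G35090) joined. That share, 5.36%, was below the 5.93% of all genes. AT5G40150 changed place with the measure, from last of the 3 by score to first by width, while PRX71 stayed ahead of PRX25. Peaks scoring at least as high made up 10.3% of the list for PRX71, 10.8% for PRX25 and 49.3% for AT5G40150. Peaks at least as wide made up 88.1%, 96.6% and 7.84%. Among peaks of the same label the score shares were 10.9%, 11.3% and 53.1%. The alternatives for promoter motifs and protein identity were not run, for lack of sequences. Unknown depth and the lack of a second library limit what each score or missing peak can show.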
